A study of Mus musculus with 16 samples.

Results

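Cholinergic motor neurons make acetylcholine with choline acetyltransferase (Chat), load it into vesicles through the transporter Slc18a3 (VAChT) and take choline back up from the synapse through Slc5a7 (CHT1). The signal is ended by acetylcholinesterase (Ache). The LIM-homeodomain factors Isl1 and Isl2 specify motor neurons in the embryo and remain in use as their markers, and the matrix protease Mmp9 is known from fast motor neurons of the adult cord. These 7 genes were taken by name, as every non-control probe of the array carrying one of these gene names. They had 9 probes of 41174 on the array, with 2 probes each for Chat and Mmp9 and 1 for each of the other genes. Where a gene had 2 probes it was counted by the brighter one.

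RNA of the lumbar spinal cord came from male B6SJL mice carrying the human SOD1G93A transgene, a model of amyotrophic lateral sclerosis, and from wild-type mice, at 40 and 80 days of age. Both ages precede paralysis in this line. The 4 groups (wild-type at 40 days, SOD1G93A at 40 days, wild-type at 80 days, SOD1G93A at 80 days) had 4 arrays each, 1 animal per array. Cord RNA was labelled with Cy3 and hybridised against a common Cy5 reference pooled from neonatal heart, kidney and liver of both genotypes, without a dye swap. Each value below is a log2 ratio of cord to reference, and every array carried the same reference RNA. Differences between groups are differences of this ratio. The change of the Cy5 signal alone is given only for some comparisons of Slc18a3, Ache and Slc5a7. Where it is not given, the reference channel may have moved too. The cord is a mixture of cells, so fewer motor neurons and less RNA per motor neuron cannot be told apart.

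Between 46.1 and 55.3% of the probes stood well above background in the cord channel of an array. Each of the 4 slides held 1 array of every group, so slide was balanced, but each group always had the same position on the slide, and position and group cannot be told apart. The skeletal muscle markers (Acta1, Ckm, Myh4, Mylpf, Tnnt3) deviated from their mean over arrays by a median of -0.78 to 2.49 on the log2 scale, the highest array being SOD1G93A at 40 days replicate 2. The peripheral myelin markers, among them Pmp22 and Prx, also varied widely, by -1.31 to 2.02, the highest array being wild-type at 40 days replicate 2. Their group means at 40 days were 0.67 in wild-type and -0.39 in SOD1G93A cords. The neuronal markers varied far less, by -0.18 to 0.16. The part of all these markers in the results below was not tested beyond leaving each array out in turn.

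What a probe sees limits what can be said of its gene, and the probes that read coding sequence are shown here because the 2 Chat probes failed where the neighbouring Slc18a3 probe worked. In RefSeq's mouse annotation (GRCm38.p6) the Slc18a3 gene lies wholly within the Chat gene, the arrangement known as the cholinergic gene locus. On the array's own build (mm7) the Slc18a3 probe was placed at chr14:29895570-29895629, minus strand. The brighter Chat probe covered 60 bases of transcript but spanned 774 bases of genome, chr14:29885420-29886193, minus strand, so it joined exons across an intron. The other Chat probe lay at chr14:29880627-29880686. The Ache probe lay at chr5:136212418-136212477 on the plus strand, and the dimmer Mmp9 probe at chr2:164695457-164695516 on the plus strand. Each sequence below is 60 bases, written 5′ to 3′ as the array files give it, and each had at least 1 reading frame free of stop codons.
Chat, brighter probe: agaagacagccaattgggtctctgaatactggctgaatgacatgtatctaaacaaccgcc
Chat, other probe: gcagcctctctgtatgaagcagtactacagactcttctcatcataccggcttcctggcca
Slc18a3: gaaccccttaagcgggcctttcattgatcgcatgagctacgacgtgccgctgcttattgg
Ache: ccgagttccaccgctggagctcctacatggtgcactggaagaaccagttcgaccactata
Mmp9, dimmer probe: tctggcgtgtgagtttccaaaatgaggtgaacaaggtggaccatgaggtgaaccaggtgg

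Chat, the gene that defines a cholinergic neuron, was not measurable in this cord RNA. Its brighter probe was well above background in the cord channel on 1 of 16 arrays, wild-type at 40 days replicate 1, and its other probe on 0 of 16. On that 1 array the background-corrected Cy3 signal, which includes 50 units added to every spot, was 76.5 units, whereas the other 15 arrays lay between 54.2 and 62.3 units. No fold is given for Chat, since no group was above background on 3 of its 4 arrays, the condition set for a test. The absence of a signal from these 2 probes is not an absence of the transcript.

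The other 6 genes met the condition for a test, but Isl1, Mmp9 and Slc18a3 were dim. Their mean Cy3 signals, with the units added to every spot, were 71.8, 86.8 (brighter probe) and 92.1. With the same added units the brighter Chat probe averaged 59.0 and Slc5a7 466.5. Slc18a3, Slc5a7, Ache, Isl2 and both Mmp9 probes were above background in cord on all 16 arrays and Isl1 on 15. All 7 genes, Chat included, had a mean ratio over the 16 arrays above 0 after normalization, and this held with 4 other treatments of background and normalization, though for Chat the signal was near background. The ratios are relative to the normalization between the dyes, and before it the Cy5 signal was the brighter one for Isl1 and Mmp9 on all 16 arrays and for Chat and Slc18a3 on most. Their size depended on the treatment too. The mean log2 ratio of Slc18a3 was 1.11, against 3.54 from the scanner's processed signals. The reference is 1 pool with no spread of its own, so these levels were not tested.

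**Figure D1:**
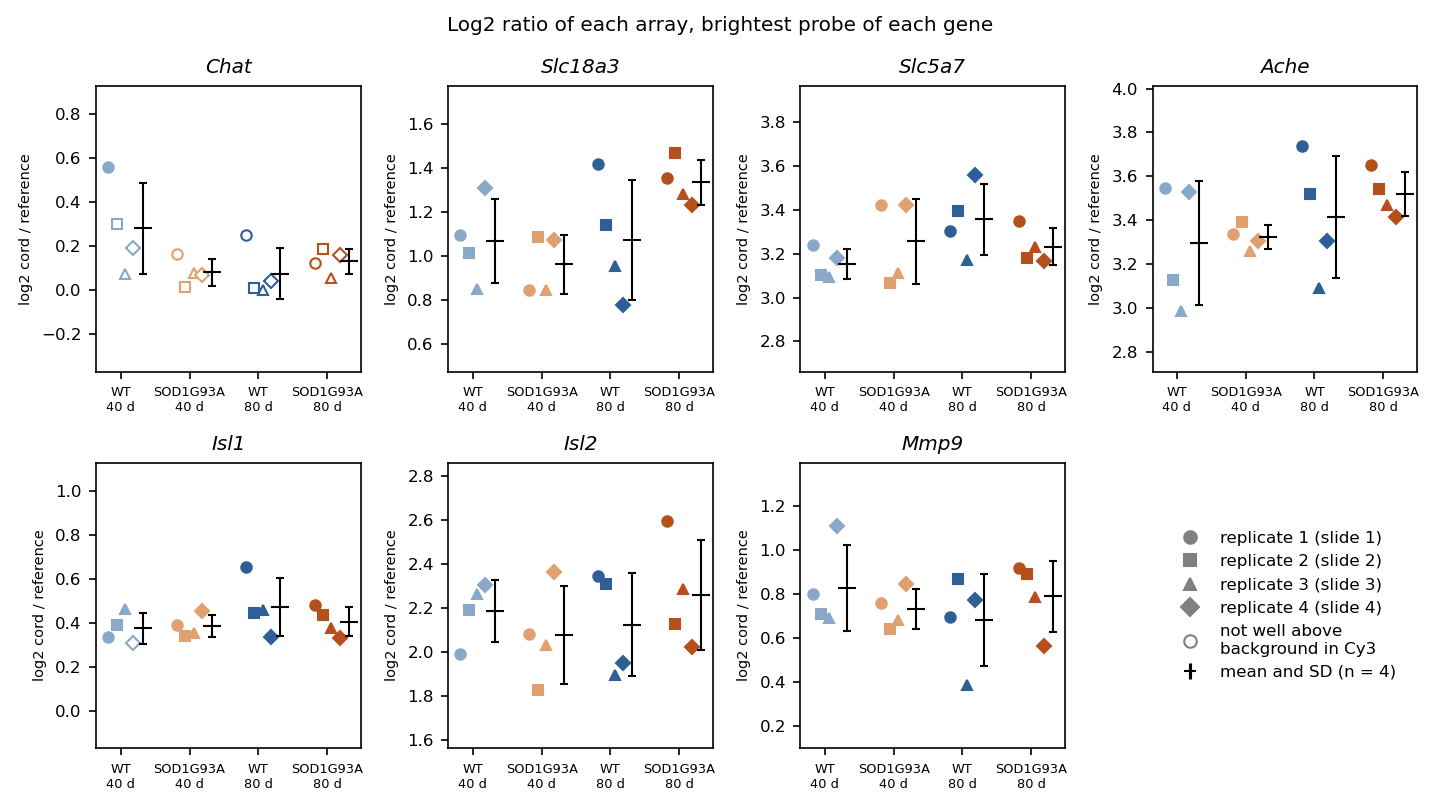
Log2 ratio of cord to reference (y axis, the same span of values in every panel) for the brightest probe of each gene in the 4 groups (x axis), with 1 point per array, marker shape for the slide, open points where cord signal was not well above background, and the mean with SD of 4 arrays. SOD1G93A at 80 days stands above SOD1G93A at 40 days for Slc18a3 and Ache, with no overlap, while the groups overlap for Isl1, Isl2 and Mmp9, and only 1 Chat point is filled.

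The first question was whether presymptomatic SOD1G93A cords had already lost cholinergic or motor neuron transcripts. At 40 days they had not to any extent that passed the test. Of the 6 genes tested, 0 passed an unadjusted p of 0.05, against 4.47% of all 21338 probes tested, and the groups overlapped for every one, where 2.83% of probes had groups that did not overlap. Of these genes 3 were higher in SOD1G93A and 3 lower, with differences from -0.11 for Isl2 to 0.10 for Slc5a7 on the log2 scale and unadjusted p from 0.289 to 0.860 (limma). Under this processing the 95% bounds over the 6 genes ran from -0.36 to 0.30. A fall of more than 1.28-fold or a rise of more than 1.24-fold lay outside the interval of every gene. With processed signals the SE of Isl1 was 0.22 instead of 0.055, but that of Ache was 0.085 instead of 0.12. With bright local backgrounds kept the SE of Ache was 0.45. The bounds therefore hold for this processing only.

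The values of the 2 transporters at 40 days show how small these differences were. Slc18a3 in wild-type cords was 1.10, 1.01, 0.85 and 1.31 in replicates 1 to 4, and in SOD1G93A cords 0.85, 1.09, 0.85 and 1.08. Slc5a7 was 3.24, 3.10, 3.10 and 3.18 in wild-type and 3.42, 3.07, 3.11 and 3.42 in SOD1G93A. The SOD1G93A values of Slc5a7 lay on both sides of the wild-type ones, 2 above all of them.

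Ache, which breaks acetylcholine down, averaged 3.30 ± 0.28 (SD, n = 4) in wild-type and 3.32 ± 0.06 in SOD1G93A cords at 40 days. Its wild-type arrays ranged from 2.99 to 3.55 and enclosed all SOD1G93A arrays, which ranged from 3.26 to 3.39. Ache is also a muscle transcript. The array with the highest muscle markers, SOD1G93A at 40 days replicate 2, gave the highest Ache value of its group, 3.39, by a margin within the spread of the wild-type group.

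Among the identity factors, Isl1 averaged 0.38 ± 0.07 in wild-type and 0.39 ± 0.05 in SOD1G93A cords at 40 days (SD, n = 4 each), the smallest difference of the 6 genes under the main processing. Isl2 averaged 2.19 ± 0.14 and 2.08 ± 0.22. Isl1 was the dimmest of the 6 genes, and with processed signals its difference was 0.16 ± 0.22 (SE). Isl1 is also used by sensory neurons and dorsal interneurons. Of the sensory neuron markers looked at, Avil was above background in cord on 0 of 16 arrays, Scn10a on 1, P2rx3 on 6 and Pou4f1, which spinal interneurons also use, on all 16.

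Both Mmp9 probes read lower in SOD1G93A cords at 40 days, by 0.10 and 0.12 on the log2 scale, with unadjusted p of 0.328 and 0.204 (limma). The brighter probe was lower on all 4 slides, by 0.01 to 0.27. Neutrophils are the other well-known source of Mmp9, and 2 of 6 neutrophil markers tested at this age were higher and 4 lower, with 0 called.

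At 80 days the same 6 genes still gave 0 calls, against 6.86% of 21603 probes, and again the groups overlapped for each, where 4.31% of probes had groups that did not overlap. Of the 6 genes, 4 were now higher in SOD1G93A (Slc18a3, Ache, Isl2, Mmp9) and 2 lower (Slc5a7, Isl1). The median difference over the 6 genes was 0.11, against a median of -0.001 over all probes tested. Under the main processing the 95% bounds ran from -0.32 to 0.54, so a fall of more than 1.24-fold lay outside the interval of every gene. As at 40 days, these bounds hold for that processing only, and for the dim genes they are not bounds on the RNA.

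Slc18a3 had the smallest p of the 6 at 80 days. It was 1.42, 1.14, 0.95 and 0.78 in wild-type replicates 1 to 4 and 1.36, 1.47, 1.28 and 1.23 in SOD1G93A. The 4 SOD1G93A cords lay close together, and only the wild-type cord of slide 1 reached into their range. The difference was 0.26 ± 0.12 (SE) on the log2 scale, a fold of 1.20, with unadjusted p = 0.059 and adjusted p = 0.730 (limma, Benjamini-Hochberg over all probes tested). An exact two-sided permutation test of the 8 values gave p = 0.143, where the smallest p that 4 against 4 arrays can give is 0.0286.

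Within slides, SOD1G93A minus wild-type Slc18a3 at 80 days was -0.06, 0.33, 0.33 and 0.46 on slides 1 to 4. With slide (the replicate block) in the fit the unadjusted p was 0.024, still with an adjusted p of 0.620, and without the wild-type array of replicate 1 the difference was 0.38 with an unadjusted p of 0.0035 and an adjusted p of 0.560. Without loess normalization the difference was -0.074. The common reference is the same RNA on every array, yet the Cy5 signal of this probe alone was also higher on the SOD1G93A arrays, by 0.23, beside 0.17 for the Cy3 signal alone.

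For the remaining genes at 80 days the difference between the groups was smaller than the range of values within either group. Slc5a7 was 3.30, 3.39, 3.17 and 3.56 in wild-type and 3.35, 3.18, 3.23 and 3.17 in SOD1G93A cords, a difference of -0.12 with unadjusted p = 0.178 (limma). Without wild-type replicate 3 it became -0.19 with unadjusted p = 0.047 (limma). Ache averaged 3.41 ± 0.28 and 3.52 ± 0.10 (SD, n = 4 each). Isl1 was lower in SOD1G93A on all 4 slides, but by only 0.005 to 0.17, with unadjusted p = 0.394.

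Isl2 averaged 2.12 ± 0.24 in wild-type and 2.26 ± 0.25 in SOD1G93A cords at 80 days, with SOD1G93A replicate 1 the highest of all 16 arrays at 2.59. The Mmp9 probes read 0.11 and 0.12 higher, with unadjusted p of 0.362 and 0.182 (limma). Beside them, all 7 neutrophil markers tested were higher in SOD1G93A cords at 80 days, with a median of 0.22 and 0 called. Over arrays the median deviation of these markers ranged from -0.22 to 0.36 in wild-type and from -0.22 to 0.56 in SOD1G93A cords. Their part in the Mmp9 values was not tested.

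**Figure D2:**
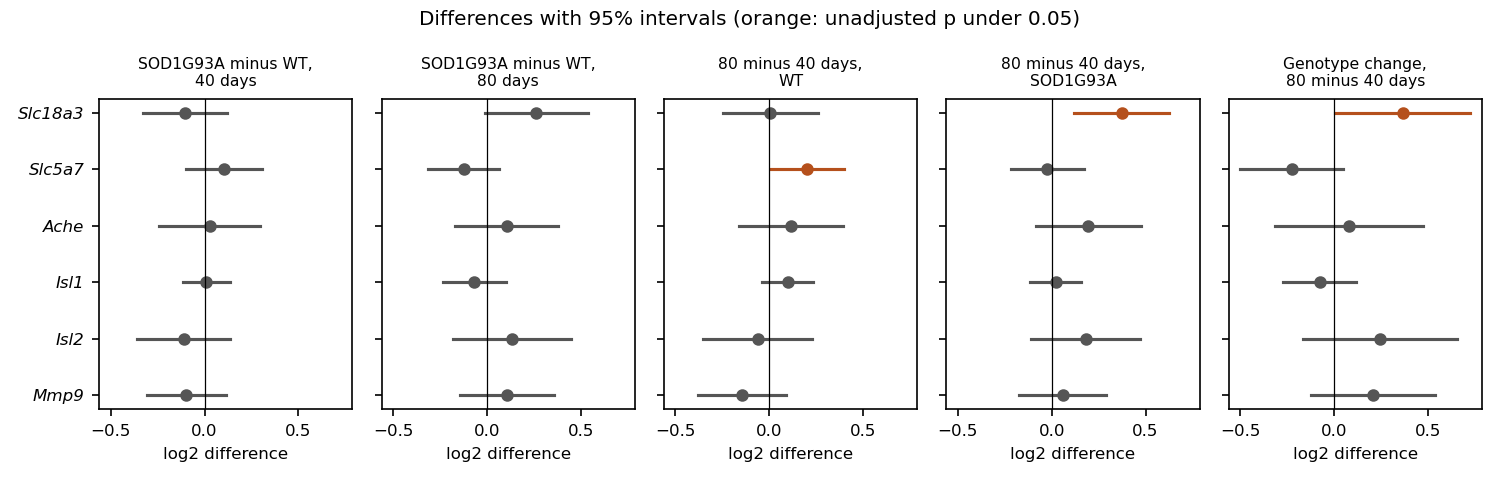
Difference on the log2 scale (x axis) with its 95% interval for the 6 tested genes (rows) in each comparison, orange where the unadjusted p was under 0.05. Neither genotype comparison holds an orange interval, and Slc18a3 is orange for age in SOD1G93A (0.37) and for the change of the genotype difference between the ages (0.37), as is Slc5a7 for age in wild-type (0.20).

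A comparison of the ages within a genotype gave the clearest difference among these genes. From 40 to 80 days Slc18a3 rose in SOD1G93A cords from 0.96 ± 0.13 to 1.34 ± 0.10 (SD, n = 4 each), a difference of 0.37 ± 0.12 (SE), or 1.29-fold, with unadjusted p = 0.0070 and adjusted p = 0.136 (limma). The highest 40-day array was 1.09 and the lowest 80-day array 1.23, so the groups did not overlap, and the exact two-sided permutation p was 0.0286, the smallest possible. It was higher at 80 days on all 4 slides, by 0.16 to 0.51. In wild-type cords the same comparison gave 0.01 ± 0.12 (SE), with 3 slides up and slide 4 down by 0.53.

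This rise needs its background. Of the 6 genes 1 was called in SOD1G93A between the ages, and 17.2% of all 21507 probes were. Slc18a3 and Ache were the 2 of 6 genes whose groups did not overlap, beside 12.6% of all probes. The rise stayed past the unadjusted threshold without any single array, with values between 0.33 and 0.41. Without loess it was 0.05 (unadjusted p = 0.493, limma). With the scanner's processed signals it was 0.20 (unadjusted p = 0.338, limma). With only the SOD1G93A arrays in the limma fit the adjusted p was 0.049. The Cy3 signal alone rose by 0.22 and the Cy5 signal alone by 0.16.

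Ache followed the same direction with age in SOD1G93A cords, from 3.34, 3.39, 3.26 and 3.31 at 40 days to 3.65, 3.54, 3.47 and 3.42 at 80 days. No 40-day array reached the lowest 80-day array. The difference was 0.20 ± 0.13 (SE) with unadjusted p = 0.156 in the limma fit of all 16 arrays, whose shared spread includes the wider wild-type groups. In a limma fit of the 8 SOD1G93A arrays alone the unadjusted p was 0.011 and the adjusted p 0.129. The exact two-sided permutation p was 0.0286. The Cy3 and Cy5 signals alone rose by 0.32 and 0.28. With the scanner's processed signals the difference was -0.059.

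In wild-type cords, 1 of the 6 genes was called between the ages, beside 15.3% of 21526 probes. Slc5a7, the choline transporter, rose from 3.15 ± 0.07 to 3.36 ± 0.16 (SD, n = 4 each), by 0.20 ± 0.09 (SE), with unadjusted p = 0.042 and adjusted p = 0.303 (limma). It was higher on all 4 slides, by 0.07 to 0.38, yet the groups overlapped, as they did for all 6 genes beside 7.77% of probes without overlap, and the exact two-sided permutation p was 0.086. The call was lost without replicate 2, 3 or 4 of wild-type at 40 days or replicate 2 or 4 of wild-type at 80 days, where the difference was 0.14 to 0.21. It was also lost with bright local backgrounds kept (0.37), without loess (0.15) and with Cy3 alone (0.10). The change of the Cy5 signal alone was -0.10. Isl1 was called only without replicate 4 of wild-type at 80 days, with a difference of 0.14.

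Whether the genotype difference itself changed between 40 and 80 days was tested directly. Slc18a3 was the 1 of 6 genes past the unadjusted threshold, beside 6.68% of 21953 probes. Its genotype difference moved from -0.10 to 0.26, a change of 0.37 ± 0.17 (SE) with unadjusted p = 0.047 and adjusted p = 0.745 (limma). Exchanging genotype labels within each age in all 4900 ways gave an exact two-sided p of 0.070. Leaving out any of 10 arrays ended the call (replicates 1, 2 and 4 of wild-type and 1 and 3 of SOD1G93A at 40 days, 3 and 4 of wild-type and 1, 2 and 3 of SOD1G93A at 80 days), with values from 0.27 to 0.38 without them. Slc5a7 passed without SOD1G93A replicate 2 at 40 days or wild-type replicate 3 at 80 days, with a change of -0.29 in both cases, against -0.23 with all arrays. The change of Slc18a3 was -0.037 without loess and -0.0074 with processed signals. Its Cy3 signal alone changed by 0.213 and its Cy5 signal alone by 0.215, although every array carried the same reference RNA.

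Whether these genes varied together among animals was asked over the 16 arrays. Of 21 pairs, 1 passed after Benjamini-Hochberg adjustment. Slc18a3 and Ache had a Pearson r of 0.78 (permutation p adjusted over the pairs 0.0067) and a Spearman rho of 0.84 (adjusted p = 0.0017). After each group's mean was taken off, r was 0.78, so the relation was also present among arrays of the same group. Without the 2 arrays farthest from the median of Slc18a3 (SOD1G93A replicate 2 and wild-type replicate 1 at 80 days), r was 0.73, with a permutation p of 0.0038 and an adjusted p of 0.063. Probes outside the members correlated more strongly with Slc18a3, up to 0.91 for Rnf220, so an r of 0.78 was not particular to this pair. The share of all probes that reach it was not counted. Arrays share slide and channel treatment, which a correlation over arrays does not separate from the animals.

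The other pairs were looser. Isl2 and Mmp9 had an r of 0.59 (permutation p = 0.014, adjusted 0.147), Ache and Mmp9 0.52 (permutation p = 0.040, adjusted 0.222) and the islet factors Isl1 and Isl2 0.50 (permutation p = 0.045, adjusted 0.222). Slc18a3 and Slc5a7, the vesicular and the plasma membrane transporter of the same neurons, had an r of -0.11 (permutation p = 0.680, adjusted 0.751).

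**Figure D3:**
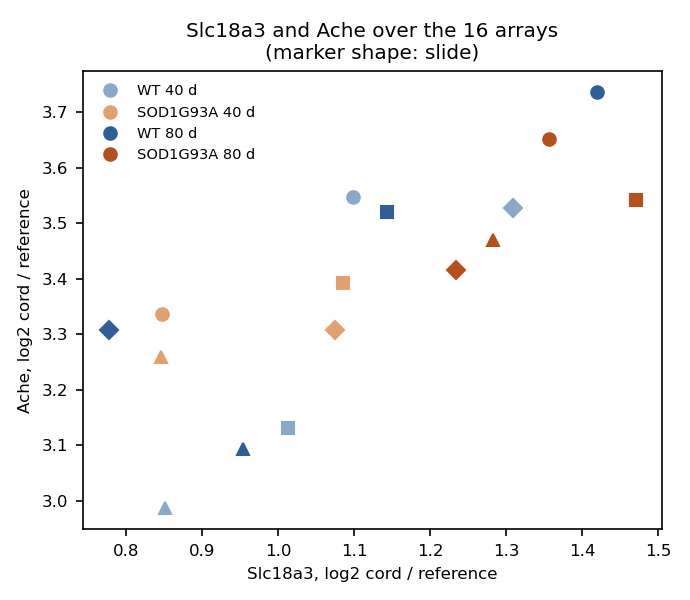
Log2 ratio of cord to reference for Slc18a3 (x axis) and Ache (y axis) on the 16 arrays, coloured by group, with marker shape for the slide. High Slc18a3 goes with high Ache over the arrays (r = 0.78), and the 4 arrays of SOD1G93A at 80 days lie together in the upper right.

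The 5 probes whose ratios most resembled those of Chat over the 16 arrays belonged to Zfp830 (r = 0.80), Sptlc2 (0.76), Dhrs2 (0.76), Cldn18 (0.74) and Wwp2 (0.73), out of 18966 named probes ranked. As Chat was at background on 15 of these arrays, the ranking describes that background. For the measured Slc18a3, chosen for this after its values were seen, the nearest were Rnf220 (0.91), Dtx3 (0.91), Ece2 (0.90), Svop (0.90), a synaptic vesicle protein, and Ptpa (0.90). For Slc5a7 they were Ptprz1 (0.84), Gabrg1 (0.84), Sowaha (0.81), Rnmt (0.80) and Nek4 (0.79). Ptprz1, a receptor phosphatase, is best known from glia.

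Genes with related roles were counted in lists. The other treatments of background and normalization and the leaving out of single arrays were not examined for the genes of these lists. Of 10 genes in a broad cholinergic list, which held Ric3, Lynx1 and Acly beside choline handling and esterase genes, 8 were tested. At 40 days 2 were higher and 6 lower in SOD1G93A, 0 called, with a median of -0.02. At 80 days all 8 were higher, with a median of 0.09 beside -0.001 over all probes, and 1 was called, beside 6.86% of all probes. The called gene was Prima1, which anchors acetylcholinesterase in neuronal membranes.

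Prima1 stood at 0.50, 0.67, 0.44 and 0.14 in wild-type cords at 80 days and at 0.74, 0.77, 0.75 and 0.77 in SOD1G93A. The groups did not overlap, beside 4.31% of all probes. The difference was 0.32 ± 0.10 (SE) with unadjusted p = 0.0085 and adjusted p = 0.668 (limma). At 40 days the groups averaged 0.80 ± 0.14 and 0.77 ± 0.06 (SD, n = 4 each), so the 80-day difference came with a wild-type level that was lower than at 40 days, while SOD1G93A differed by -0.01 between the ages. The genotype difference changed between the ages by 0.36, with unadjusted p = 0.013 and adjusted p = 0.656.

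Few acetylcholine receptor genes were measurable. Of 16 nicotinic subunit genes 3 were tested and of 5 muscarinic receptor genes 2, with 0 called in either genotype comparison. The medians at 80 days were 0.02 and -0.06.

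Of 10 motor neuron transcription factor and patterning genes 8 were tested. At 40 days 2 were higher and 6 lower with 0 called, and at 80 days 4 were higher and 4 lower with 1 called, beside 6.86% of all probes. Etv4, an ETS factor known from specific motor pools, fell at 80 days from 0.42, 0.48, 0.33 and 0.36 in wild-type to 0.23, -0.05, 0.09 and 0.07 in SOD1G93A. The groups did not overlap, beside 4.31% of all probes. The difference was -0.31 ± 0.07 (SE) with unadjusted p = 0.0013 and adjusted p = 0.654 (limma), and its change from 40 days was -0.34, with unadjusted p = 0.0047 and adjusted p = 0.548. Mnx1, the HB9 factor of motor neurons, differed by -0.10 at 40 days and 0.04 at 80 days, with unadjusted p of 0.235 and 0.582.

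Of 17 markers of motor neuron subtypes 14 were tested, and 2 were called, both lower in SOD1G93A at 40 days, beside 4.47% of all probes. Calca, which encodes the neuropeptide CGRP, averaged 4.40 ± 0.20 in wild-type and 3.94 ± 0.27 in SOD1G93A cords at 40 days (SD, n = 4 each), a difference of -0.46 with unadjusted p = 0.0077 and adjusted p = 0.998 (limma). Its relative Calcb averaged 2.44 ± 0.11 and 2.15 ± 0.21, a difference of -0.29 with unadjusted p = 0.018 and the same adjusted p. For both genes 1 SOD1G93A array reached into the wild-type range. At 80 days they differed by -0.03 and -0.18, with unadjusted p of 0.844 and 0.060. CGRP is made by motor neurons and also by primary sensory neurons. Pmp22 and Prx, myelin genes of peripheral nerve, differed by -1.03 and -0.89 at 40 days and by -0.19 and -0.085 at 80 days, with 0 called, and their part in the Calca and Calcb values was not tested.

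**Figure D4:**
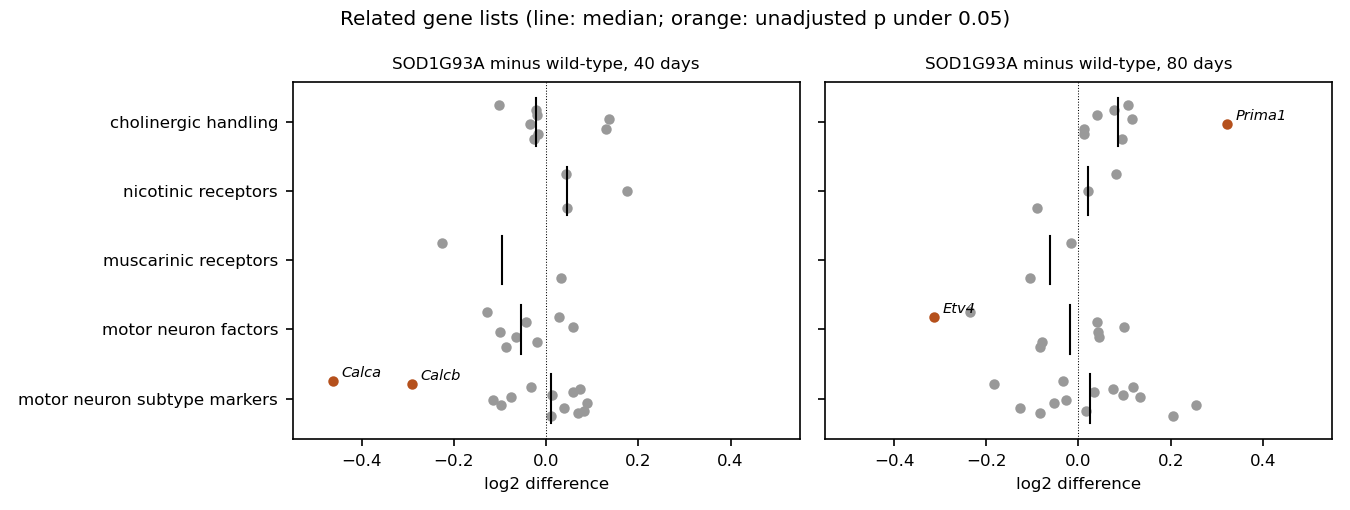
Difference between SOD1G93A and wild-type on the log2 scale (x axis) at each age for every tested gene of the 5 related lists (rows), with the list's median as a line and genes of unadjusted p under 0.05 in orange. Calca and Calcb lie low at 40 days, Etv4 low and Prima1 high at 80 days, and the list medians lie between -0.10 and 0.09.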

How the data were processed

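Lumbar cord RNA of 16 mice was measured on 2-colour Agilent whole mouse genome arrays. Per the file headers, the deposited scanner files hold spot intensity values from Feature Extraction 9.5.3.1. The authors also deposited a table of normalized log2 signals that follow Cy3, normalized separately at each age and used as an alternative. From the median intensities, local background more than 20 units above its spot was set to the array's median. Then normexp (offset 50) and loess within arrays were applied, with no further normalization of the ratios between arrays. Control and outlier spots were left out and spots of 1 probe averaged (limma 3.58.1, R 4.3.3). A probe was tested if well above background in Cy3 on 3 of 4 arrays of a group. Genotypes were compared within an age over 8 arrays, ages and the change of the genotype difference over 16, with lmFit and eBayes at an unadjusted p of 0.05, as in the study's methods, and Benjamini-Hochberg adjusted p beside it. Single genes had exact permutation tests (scipy 1.17.1). The procedure was tested on simulated data. The number of arrays limits the precision. Every member probe is named, and from the related lists each gene called in a genotype comparison. Members and lists were chosen with earlier results of these data known. Probe symbols came from the files, matched by accession to RefSeq for 22951 of 32719 named probes. Some marker genes and lists are not reported here.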

Additional observations from a re-analysis of the deposited data

Results flagged for a closer look

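The genotype difference of Slc18a3 changed between the ages by 0.37 on the log2 scale (unadjusted p = 0.047, adjusted p = 0.745, limma), as the difference itself was tested and passed the unadjusted threshold. The Cy3 signal alone changed by 0.213 and the Cy5 signal of the common reference by 0.215. The part of the reference channel in this change was not tested. The SOD1G93A cords moved up with age on all 4 slides and the wild-type cords on 3 of 4. Over 36 sets of 4 arrays (9 probes in 4 groups), no array stood apart from its group by Dixon's test.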

How the results depend on the processing

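At 40 days 0 of the member genes were called in all alternatives run. At 80 days 1 was called (Slc18a3) without background subtraction, with the authors' table, with the replicate block and with all 16 arrays for the spread, and 0 to 1 when an array was left out. For the change between the ages, the 1 call became 0 with bright backgrounds kept, without background subtraction, without loess, with Cy3 alone and by adjusted p, 2 without the filter on dim probes (adding Chat), and 0 to 2 when an array was left out. With processed signals the sign of the Slc18a3 change turned, so its call did not hold there either. A count that stayed the same can therefore stand for another gene. For age in wild-type it became 0 with bright backgrounds kept, without loess, with Cy3 alone and by adjusted p, 2 without the filter, and 0 to 1 when an array was left out. For age in SOD1G93A it became 0 with processed signals, without loess and by adjusted p, and 2 (adding Ache) with Cy3 alone and with only the 8 arrays of the genotype. The 1 correlated pair became 0 of 21 without the 2 farthest arrays. The authors' table was not run for age, since its ages were normalized separately.

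Signs turned as follows, for the Slc18a3 differences at 80 days and between the ages too. With bright backgrounds kept, Ache at 40 days was -0.046, Isl2 for age in wild-type 0.24 and Slc5a7 for age in SOD1G93A 0.15. With processed signals, Slc18a3 at 40 days was 0.032, at 80 days Ache was -0.031 and Isl2 -0.18, the change between the ages was -0.0074 for Slc18a3, -0.17 for Ache and -0.11 for Isl2, and age in SOD1G93A gave -0.059 for Ache, -0.057 for Isl1, -0.35 for Isl2 and -0.00036 for Mmp9. Without loess, Isl1 at 40 days was -0.00086, at 80 days Slc18a3 was -0.074 and Isl2 -0.027, the change between the ages for Slc18a3 was -0.037, and age in SOD1G93A gave -0.023 for Isl1 and -0.054 for Isl2. With Cy3 alone, at 40 days Slc5a7 was -0.040 and Ache -0.054, and Slc5a7 for age in SOD1G93A 0.060. With the authors' table, at 40 days Slc5a7 was -0.043, Ache -0.031 and Mmp9 0.013. The cause was not tested.

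Leaving out 1 array gave, at 40 days, -0.077 to 0.11 for Ache and -0.013 to 0.039 for Isl1, at 80 days -0.0015 to 0.21 for Ache, for the change between the ages -0.028 to 0.19 for Ache, for age in wild-type -0.11 to 0.10 for Slc18a3 and -0.14 to 0.013 for Isl2, and for age in SOD1G93A -0.087 to 0.032 for Slc5a7 and -0.0038 to 0.046 for Isl1. Over all probes the calls at 40 days were 953, but 246 with bright backgrounds kept, 554 with Cy3 alone, 538 with the authors' table, 1615 with processed signals, 1881 without the filter and 1894 without wild-type replicate 4. At 80 days 1481 became 2412 without the filter and 974 without SOD1G93A replicate 3. For the change between the ages 1466 became 797 with bright backgrounds kept and 2459 without the filter, and for age in wild-type 3289 became 5004 without the filter. By adjusted p they were 0 in both genotype comparisons and in the change, and 350 and 254 for age in wild-type and SOD1G93A. Same-numbered arrays of the 2 genotypes had correlated deviations of -0.07 to 0.20, so the numbers were not taken to pair the animals. The replicate block changed no call other than Slc18a3 at 80 days.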
